A study of Mus musculus with 8 samples.

Results

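The endocannabinoid signalling genes are 8 genes of the mouse ventral tegmental area (VTA), chosen by name from the 54735 genes in the count table. They are the receptors Cnr1 and Cnr2, the synthetic enzymes Dagla, Daglb and Napepld, and the degrading enzymes Mgll, Abhd6 and Faah. Each was found once in the table by its symbol, and 7 of the 8 passed the filter on low counts. The study asked how repeated social stress in early life changes the developing dopamine system, and RNA from VTA punches was sequenced for 4 unhandled control (CTR) and 4 social stress (SS) mice. All 8 mice are given as male DBA2/J mice. SS pups met a threatening adult male mouse for 30 min a day on 7 consecutive days between postnatal days 14 and 21, and CTR litters were left undisturbed. The sample labels give an age of 21 days, and the study's methods place the dissection on the day after the last session. Each library comes from 1 mouse with its left and right punches combined. Libraries are named here by group and replicate number, which are 1, 2, 3 and 5 in CTR and 2, 3, 4 and 5 in SS. Where 4 values of a group follow each other, they stand in the order of these numbers.

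Endocannabinoids are lipid messengers that are made on demand, mostly in postsynaptic neurons, and travel backwards across the synapse. There they bind the CB1 receptor on presynaptic terminals and lower transmitter release. The main ones are 2-arachidonoylglycerol, made by diacylglycerol lipases and broken down mostly by monoacylglycerol lipase, and anandamide, which fatty acid amide hydrolase breaks down. In the VTA, dopamine neurons release 2-arachidonoylglycerol, and CB1 receptors sit on the glutamate and GABA terminals that contact them.

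The CTR libraries held 20036086, 25399538, 23512478 and 39569142 counts, and the SS libraries 41509698, 47319997, 26024301 and 25248618. Levels are given as CPM, the counts of a gene scaled to a common library size (counts per M), and fold changes as log2 of SS over CTR with the standard error (SE). Before the results, the sex labels were checked. Xist, the RNA of the inactive X chromosome, had 14997 counts in CTR-5 and 6551 in SS-5, compared with 0 to 3 in the other 6 libraries. Counts of Uty, Kdm5d, Eif2s3y and Ddx3y, which are Y-linked, summed to 3 counts in CTR-5 and 0 in SS-5, compared with 2293 to 7892 in the other 6. The transcripts of CTR-5 and SS-5 thus go against the male label, and fold changes of the 7 tested endocannabinoid genes are also given without this pair. CTR-1 and CTR-2 held fewer genes of low abundance. Among 1989 genes averaging 1 to 3 CPM, CTR-1 lacked any count of 434 and CTR-2 of 354, while each other library lacked between 1 and 94.

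The tissue label was checked against cell type markers. All 10 dopamine neuron markers passed the filter, and their summed level was 1976, 1240.2, 928 and 1830.0 CPM in CTR. The SS libraries had 288, 252, 278 and 356 CPM. With edgeR's quasi-likelihood test, 6 of the 10 were called lower in SS and 0 higher. Slc6a3, the dopamine transporter and per exon length the most abundant of the list in CTR, was at 448 ± 186 CPM in the CTR mice and fell to 6.19 ± 4.13 in the SS mice (SD, n = 4 each), a difference of -6.22 on the log2 scale with an SE of 0.51 (adjusted p = 0.00053 in edgeR). Th, the rate-limiting enzyme of dopamine synthesis, fell by 3.99 on the log2 scale, with an SE of 0.35 (adjusted p = 0.00053 in edgeR). In stained sections of other mice, the study counted similar numbers of tyrosine hydroxylase neurons in the VTA of both groups. The paper therefore holds that the fall is probably one of transcription and not of neuron number. In the RNA of bulk punches alone, fewer dopamine neurons in the punch and less RNA of these genes per neuron cannot be told apart. The endocannabinoid genes were therefore read in tissue whose dopamine neuron transcripts differed between the groups, and the part of this in their values was not tested.

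Cnr1 encodes the CB1 receptor, the main cannabinoid receptor of the brain. The gene lies on chromosome 4 (chr4:33924593-33948831, plus strand, GRCm38). Its level was 47.5, 81.9, 87.8 and 105 CPM in CTR and 105, 98.7, 86.9 and 88.7 CPM in SS. The groups overlapped, with CTR-1 well below the other 7 libraries and CTR-5 just above SS-2. CTR averaged 80.6 ± 24.2 CPM and SS averaged 94.8 ± 8.44 CPM (SD, n = 4 each). The log2 fold change was 0.23 (SE 0.19, 95% interval -0.19 to 0.66, adjusted p = 0.84 in edgeR), and the exact two-sided permutation p was 0.34. On the linear scale this interval runs from 0.874 to 1.58 times the CTR level. CTR-1 decided much of the difference, since the log2 fold change was 0.048 without it. Without CTR-5 it was 0.39, and without CTR-5 and SS-5 together it was 0.42 (adjusted p = 0.54 in edgeR).

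Cnr2 encodes the CB2 receptor, best known from immune cells. It lies further along the same chromosome (chr4:135895394-135920207, plus strand, GRCm38). It had 4 counts in CTR-2, 5 in CTR-5, 4 in SS-2 and 0 in the other 5 libraries, 13 counts in all. A count of 0 allows a level of up to 0.155 CPM in CTR-1 and 0.130 in CTR-3, and between 0.0622 (SS-3) and 0.116 CPM (SS-5) in the SS libraries at 0 (3 counts, counting error only). The gene did not pass the filter. Fitted with edgeR without that filter, it was not called and had no unadjusted p under 0.05. The microglia that are often named as a source of CB2 in brain were present in the punches. All 9 microglia markers passed the filter, and the summed level averaged 292 ± 42.0 CPM over CTR and 261 ± 13.6 over SS (SD, n = 4 each). None of the 9 was called with edgeR. Blood leukocyte markers were near 0, with 0 of 7 past the filter, summed levels of 0 to 0.878 CPM, and no count of Ms4a1 in any library.

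The receptors lay far apart in level, so their promoters are shown side by side. Each window holds 300 bases around the start site nearest to the annotated start of the gene, from RefSeq on GRCm38.p6, plus strand, written in lower case with each CG in capitals. The Cnr1 window is chr4:33924394-33924693 and the Cnr2 window is chr4:135894939-135895238.
Cnr1: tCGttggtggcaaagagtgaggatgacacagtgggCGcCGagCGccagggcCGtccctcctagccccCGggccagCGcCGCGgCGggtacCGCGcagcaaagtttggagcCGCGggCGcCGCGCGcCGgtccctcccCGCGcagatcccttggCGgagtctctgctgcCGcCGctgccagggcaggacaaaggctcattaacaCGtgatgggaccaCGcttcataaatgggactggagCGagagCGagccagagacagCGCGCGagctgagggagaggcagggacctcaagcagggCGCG
Cnr2: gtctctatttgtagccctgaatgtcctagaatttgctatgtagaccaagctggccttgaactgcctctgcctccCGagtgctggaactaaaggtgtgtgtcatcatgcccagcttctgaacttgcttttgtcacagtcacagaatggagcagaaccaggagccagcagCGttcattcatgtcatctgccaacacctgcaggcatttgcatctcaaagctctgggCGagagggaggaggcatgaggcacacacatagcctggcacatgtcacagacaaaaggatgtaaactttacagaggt
The Cnr1 window holds 33 CG and the Cnr2 window 3, where the median over the 20554 genes with such a window was 11. A window was found for 7 of the 8 genes. The others held 32 CG in Mgll, 28 in Napepld, 24 in Abhd6, 16 in Faah and 11 in Daglb. On either strand the cAMP response element TGACGTCA, found in 2.22% of windows, was in none of the 7. The same held for the TATA box TATAAA, found in 13.2% of windows. These counts describe the windows alone, since binding and methylation were not measured.

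**Figure D1:**
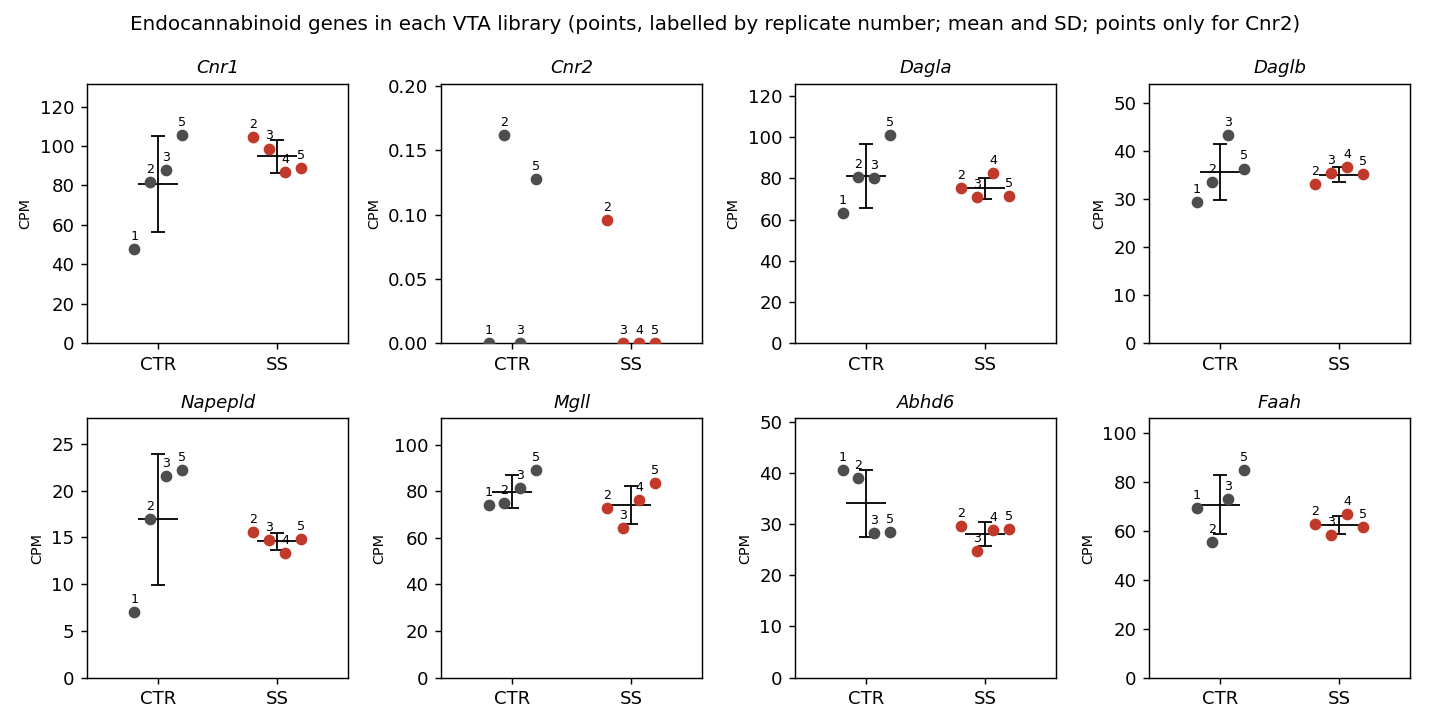
CPM of the 8 endocannabinoid genes (vertical axes, from 0) in the 4 CTR and 4 SS libraries, each point labelled with its replicate number, and bars giving mean and SD. CTR-1 is the lowest library for Cnr1 at 47.5 CPM and for Napepld at 7.03 CPM, and the groups overlap for every gene.

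Dagla encodes diacylglycerol lipase alpha, the main maker of 2-arachidonoylglycerol at adult synapses (chr19:10245265-10304877, minus strand, GRCm38). It had 63.0, 80.8, 80.0 and 101 CPM in CTR and 75.5, 71.1, 82.4 and 71.4 CPM in SS. The SS values all lay within the CTR range. The log2 fold change was -0.11 (SE 0.14, 95% interval -0.41 to 0.19, adjusted p = 0.90 in edgeR; exact permutation p = 0.60). It was 0.0095 without CTR-5, the highest library, -0.22 without CTR-1, and 0.032 without CTR-5 and SS-5.

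Daglb encodes the related diacylglycerol lipase beta (chr5:143464584-143505942, plus strand, GRCm38). Its 8 values ran from 29.4 CPM in CTR-1 to 43.2 in CTR-3, with SS between 33.1 and 36.6. SS differed by a log2 fold change of -0.024 (SE 0.14, 95% interval -0.33 to 0.28, adjusted p = 0.98 in edgeR; exact permutation p = 0.91). Its sign turned without CTR-3, to 0.077, and without SS-2, to 0.0075. It was -0.10 without CTR-1, -0.050 without CTR-2, -0.043 without SS-4, -0.013 without CTR-5 and -0.014 without CTR-5 and SS-5. In GENCODE M21, Rac1 on the opposite strand covers 2309 of the 9567 exonic bases of Daglb, and Rac1 had 76747 counts over the 8 libraries. Whether reads were counted by strand is not given in the sources used here, so the level of Daglb is uncertain to that extent.

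Napepld encodes a phospholipase D that makes anandamide and related amides from membrane lipids (chr5:21662901-21701396, minus strand, GRCm38). Its level was 7.03, 17.0, 21.6 and 22.2 CPM in CTR and 15.6, 14.7, 13.4 and 14.8 CPM in SS. All SS values lay below 3 of the CTR values and above CTR-1. This gave a log2 fold change of -0.22 (SE 0.29, 95% interval -0.86 to 0.42, adjusted p = 0.90 in edgeR; exact permutation p = 0.91). Without CTR-1 it was -0.47 with an adjusted p of 0.51 in edgeR, while it was -0.087 without CTR-3, -0.058 without CTR-5 and -0.065 without CTR-5 and SS-5.

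Mgll encodes monoacylglycerol lipase (chr6:88724412-88828360, plus strand, GRCm38). It was the steadiest of the 7 genes in CTR, at 73.9, 74.9, 81.5 and 89.0 CPM. In SS it had 72.7, 64.0, 76.4 and 83.7 CPM, with SS-2 and SS-3 below the CTR range and the others within it. The log2 fold change was -0.11 (SE 0.12, 95% interval -0.36 to 0.15, adjusted p = 0.88 in edgeR; exact permutation p = 0.37). It was -0.039 without SS-3, -0.049 without CTR-5, -0.17 without SS-5, and -0.11 without CTR-5 and SS-5. Gm26588 on the opposite strand shares 167 exonic bases with Mgll and had 317 counts over the 8 libraries, compared with 18994 for Mgll.

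Abhd6 encodes a membrane hydrolase that also cleaves 2-arachidonoylglycerol (chr14:8002902-8056763, plus strand, GRCm38). CTR-1 had 40.5 CPM and CTR-2 38.9, while CTR-3 had 28.2 and CTR-5 28.5. The SS libraries had 29.7, 24.7, 28.8 and 29.0 CPM. CTR-1 and CTR-2, the libraries with fewer low genes, were thus the high ones for Abhd6. SS was lower by a log2 fold change of -0.28 (SE 0.16, 95% interval -0.63 to 0.069, adjusted p = 0.77 in edgeR; exact permutation p = 0.29), the smallest adjusted p of the 7 genes tested. It was -0.18 without CTR-1, -0.015 without CTR-1 and CTR-2 together, and -0.37 without CTR-5 and SS-5.

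Faah encodes fatty acid amide hydrolase, which ends the action of anandamide (chr4:115967145-116017926, minus strand, GRCm38). It had 69.2, 55.5, 73.1 and 84.8 CPM in CTR and 62.7, 58.4, 67.0 and 61.5 CPM in SS. The SS values lay within the CTR range. The log2 fold change was -0.18 (SE 0.13, 95% interval -0.47 to 0.11, adjusted p = 0.81 in edgeR; exact permutation p = 0.31), and it was -0.28 without CTR-2, -0.079 without CTR-5 and -0.073 without CTR-5 and SS-5.

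None of the 7 tested endocannabinoid genes passed an adjusted p of 0.05 in edgeR, where 14 of all 16538 genes tested did (0.0847%). At an unadjusted p under 0.05 it was again 0 of 7, where 1083 genes were past it (6.55%). Both counts move with single libraries, to 1 of 7 without CTR-1, without CTR-2 or without CTR-3, and over all genes to 2265 of 16913 without CTR-5, 637 of 16934 without SS-3 and 598 of 16957 without SS-4. DESeq2 with default options also called 0 of the 7, and 81 of the 19349 genes it tested (0.419%). The CTR and SS values did not separate for any of the 7, where they did for 773 of the 16538 genes (4.67%). The sign was negative for 6 genes and positive for Cnr1, and the median log2 fold change was -0.11, where it was 0.0037 over all genes tested. Several of these signs turn when libraries are left out, for Dagla and Daglb as given above and for Cnr1 to -0.026 without CTR-1 and CTR-2. The median absolute log2 fold change was 0.18 for the 7 genes and 0.19 over all genes. With 4 mice a group, the intervals leave room for changes of modest size, the widest being that of Napepld at 0.552 to 1.34 times the CTR level.

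**Figure D2:**
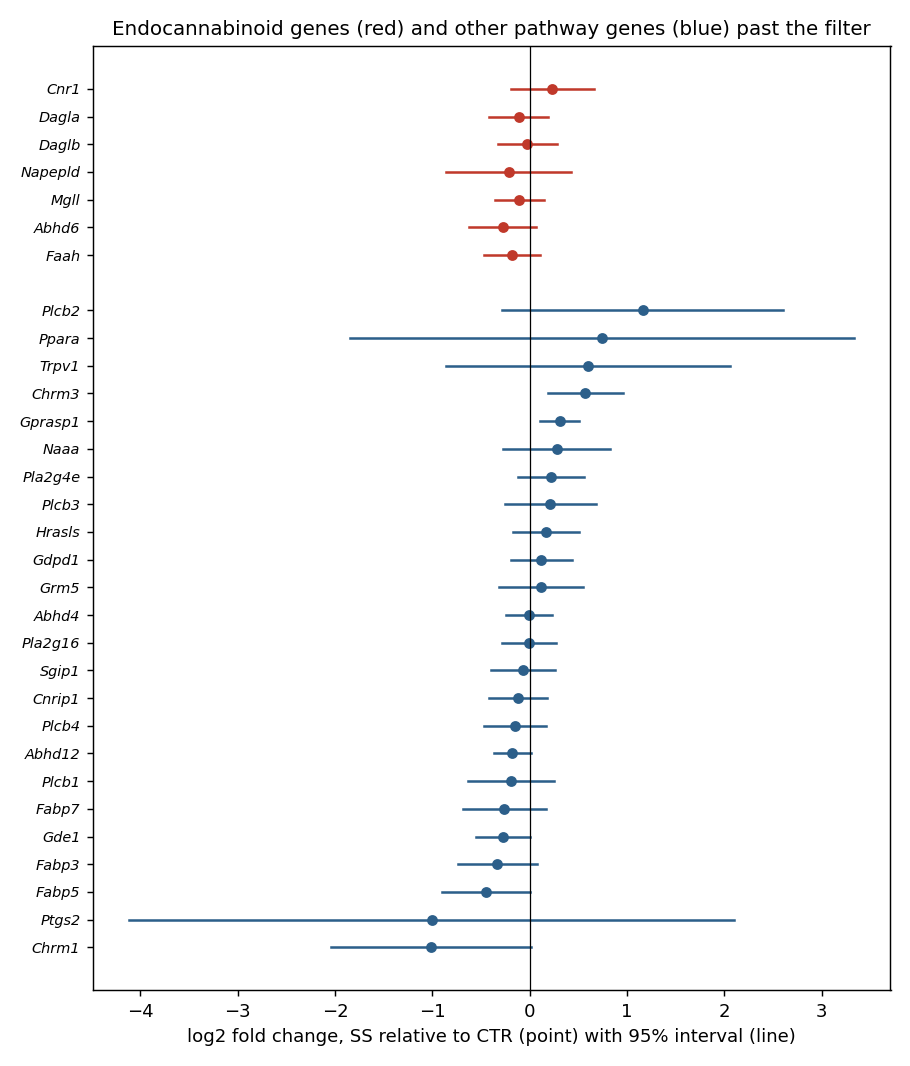
Log2 fold change, SS relative to CTR (points, horizontal axis), with the 95% interval (lines) for the 7 tested endocannabinoid genes (red) and the tested genes of the wider pathway that are reported here (blue). The interval crosses 0 for each of the 7 red genes and lies above it for Chrm3 and Gprasp1.

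Compared per kb of exon length, Mgll was at 15.2 ± 1.50 CPM per kb over the 8 libraries, Cnr1 at 13.6 ± 2.86, Dagla at 13.6 ± 1.95 and Abhd6 at 13.1 ± 2.36 (SD, n = 8). The ranges of these 4 overlap, and they do not differ beyond their spread. Faah followed at 8.49 ± 1.20 CPM per kb, and its highest library, at 10.8, overlapped the lower values of Cnr1 and Abhd6. Within each library, though, Faah lay below Abhd6 and, except in CTR-1, below Cnr1. Napepld at 3.99 ± 1.21 and Daglb at 3.69 ± 0.411 CPM per kb lay lower, did not differ from each other beyond their spread, and did not overlap Faah in any library. Cnr2 came last at 0.0121 CPM per kb. The median of the 16455 tested genes with a known length was 4.22 CPM per kb, and Mgll lay above 80.3% of them.

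**Figure D3:**
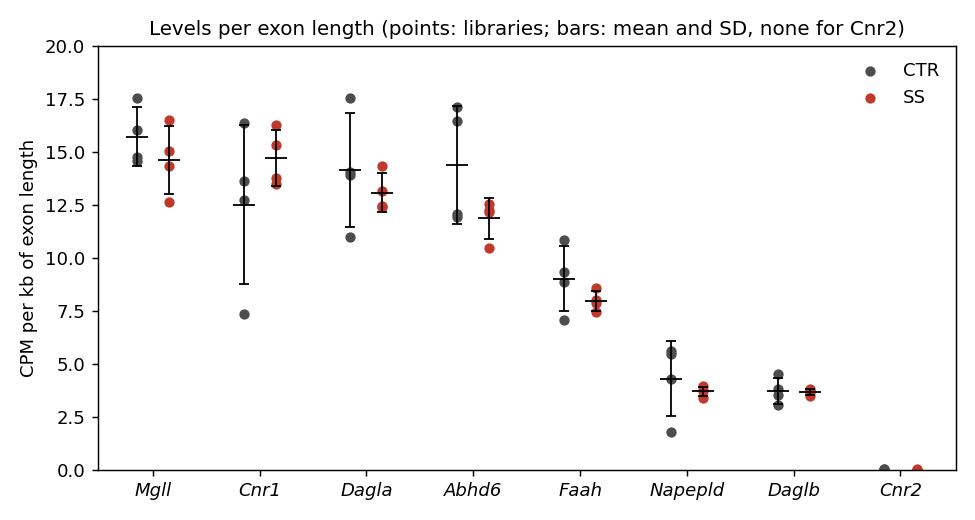
Level of each gene in CPM per kb of exon length (vertical axis, from 0), in CTR and SS libraries (points) with mean and SD, in descending order of the mean. Mgll, Cnr1, Dagla and Abhd6 form an upper group whose libraries overlap, and Cnr2 is near 0.

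The balance of makers and breakers was read within each library as a log2 ratio of CPM, as a description without a test. Dagla over Mgll was 0.0087 ± 0.18 in CTR and 0.022 ± 0.17 in SS (SD, n = 4 each), and the difference turned to -0.066 without CTR-1, to -0.030 without SS-3 and to -0.016 without SS-4. It was 0.047 without CTR-2, 0.070 without CTR-5, 0.096 without SS-5, and 0.15 without CTR-5 and SS-5. Napepld over Faah was -2.17 ± 0.75 in CTR and -2.09 ± 0.16 in SS, with CTR-1 at -3.29 and the other 3 CTR libraries between -1.93 and -1.71. SS minus CTR turned from 0.081 to -0.29 without CTR-1, and it was 0.24 without CTR-2. Cnr1 over Dagla was -0.048 ± 0.24 in CTR and 0.33 ± 0.19 in SS, and the values overlapped, since SS-4 at 0.076 lay below CTR-3 at 0.13. Abhd6 over Mgll and Dagla over Daglb overlapped between the groups as well, with SS minus CTR at -0.15 and -0.085. The first was -0.028 without CTR-1 and 0.19 without CTR-1 and CTR-2, and it ran to -0.29 without CTR-5. The second was 0.012 without CTR-5, 0.036 without CTR-5 and SS-5, and -0.18 without CTR-3.

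Of 32 other genes of the pathway, 25 passed the filter, and 0 of them were called higher and 0 lower with edgeR or DESeq2. At an unadjusted p under 0.05 there were 2, where 6.55% of all genes tested were past it, and the median log2 fold change was -0.0054. With DESeq2 the count was 5, and 1639 over all genes. DESeq2 gave an adjusted p for 26 pathway genes and 19349 genes in all. Its counts at an unadjusted p can include genes outside these, so no share is given. In edgeR the count became 6 of 25 without CTR-1 (all genes 1330 of 17101) and 3 of 25 without CTR-2 (971 of 17101). It was 5 of 26 without CTR-3 (1181 of 17003) and 5 of 26 without CTR-5 (2265 of 16913). Without CTR-1 and CTR-2 it was 7 of 26 (1177 of 18555), and without CTR-5 and SS-5 it was 5 of 25 (1746 of 16471). It was 5 of 29 without a filter (1986 of 27881) and 5 of 24 with a mean count of at least 50 (1098 of 13826). Robust estimation gave 4 of 25 (1123 of 16538), and the bias-adjusted estimate 4 of 25 (1338 of 16538). Leaving out CTR-1 and CTR-5 gave 7 of 26 (2715 of 17786), while limma voom gave 2 of 25 (1250 of 16538). Both genes past an unadjusted p of 0.05 in the main edgeR fit of all 8 libraries were higher in SS without overlap between the groups. Of all genes tested, 4.67% did not overlap in either direction. Gprasp1, a sorting protein that binds CB1, had 764, 905, 975 and 979 CPM in CTR and 1170.3, 1187, 1100.2 and 1027 CPM in SS. On the log2 scale SS was 0.31 above CTR (SE 0.091, adjusted p = 0.64 in edgeR). Chrm3, a muscarinic receptor whose signalling through phospholipase C drives 2-arachidonoylglycerol synthesis, had 26.6, 26.1, 40.5 and 43.2 CPM in CTR and 48.2 to 53.6 CPM in SS. Here SS was 0.57 above CTR on the log2 scale (SE 0.18, adjusted p = 0.68 in edgeR). Without CTR-1 and CTR-2 the fold changes were 0.28 for Chrm3 and 0.20 for Gprasp1. Neither passed the threshold under any alternative tried. The next smallest p among genes higher in SS was that of Plcb2, a phospholipase C, with a log2 fold change of 1.16 (SE 0.66) at 1.22 CPM in CTR and 2.74 in SS.

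The smallest p values among genes lower in SS belonged to Chrm1, Fabp5 and Gde1, each with an adjusted p of 0.75 in edgeR. Chrm1, another muscarinic receptor, had 7.08, 33.6, 18.1 and 60.7 CPM in CTR, while SS ran from 12.5 to 17.7. Fabp5, a carrier of endocannabinoids in the cytosol, averaged 31.9 ± 10.3 CPM over CTR and 23.4 ± 1.46 over SS (SD, n = 4 each). Gde1, a glycerophosphodiesterase of an alternative anandamide route and the most abundant gene per kb among the synthetic enzymes, had a log2 fold change of -0.28 (SE 0.13). CTR-1 at 299 CPM and CTR-2 at 235 lay above SS, while CTR-3 at 203 and CTR-5 at 193 lay within the SS range of 183 to 204. In 3 other roles the most abundant per kb were Abhd12, a further hydrolase of 2-arachidonoylglycerol, at 93.0 CPM per kb, Gprasp1 at 125 and Trpv1 at 0.524. Gdpd3, Hrasls5, Alox12, Alox15, Gpr55, Gpr18 and Gpr119 did not pass the filter, and Hrasls5, Gpr18 and Gpr119 had no count in any library.

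Forebrain markers varied between the libraries that stood apart for the endocannabinoid genes, and hypothalamus and mammillary region markers differed between the groups. All 6 forebrain excitatory neuron markers passed the filter, and their summed level was 29.7, 286, 85.0 and 552 CPM in CTR against 61.6, 59.8, 38.1 and 109 CPM in SS. Slc17a7, their most abundant gene per kb, had 13.9 CPM in CTR-1 and 403 in CTR-5, and Tbr1 had no count in CTR-1. CTR-1 was also lowest, and CTR-5 highest, of all 8 libraries for Cnr1, Dagla, Napepld and Chrm1. Other values run against this order, since CTR-2 had the second-highest forebrain sum but the second-lowest Cnr1, and Abhd6 was highest in CTR-1. Hypothalamus and mammillary region markers (6 of 8 past the filter, Avp at 0 in every library) summed to 19.0, 62.0, 26.6 and 28.4 CPM in CTR and to 73.7, 66.6, 78.0 and 84.5 CPM in SS. Every SS sum thus lay above every CTR sum. Pmch, the most abundant of that list per kb, had 6.36 ± 7.40 CPM in CTR and 37.4 ± 8.68 in SS (SD, n = 4 each). Pmch and Otp were higher in SS without overlap, while the other tested markers of the list overlapped. Of all genes tested, 4.67% did not overlap in either direction. None of these markers was called with edgeR, and their part in the values of the endocannabinoid genes was not tested.

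**Figure D4:**
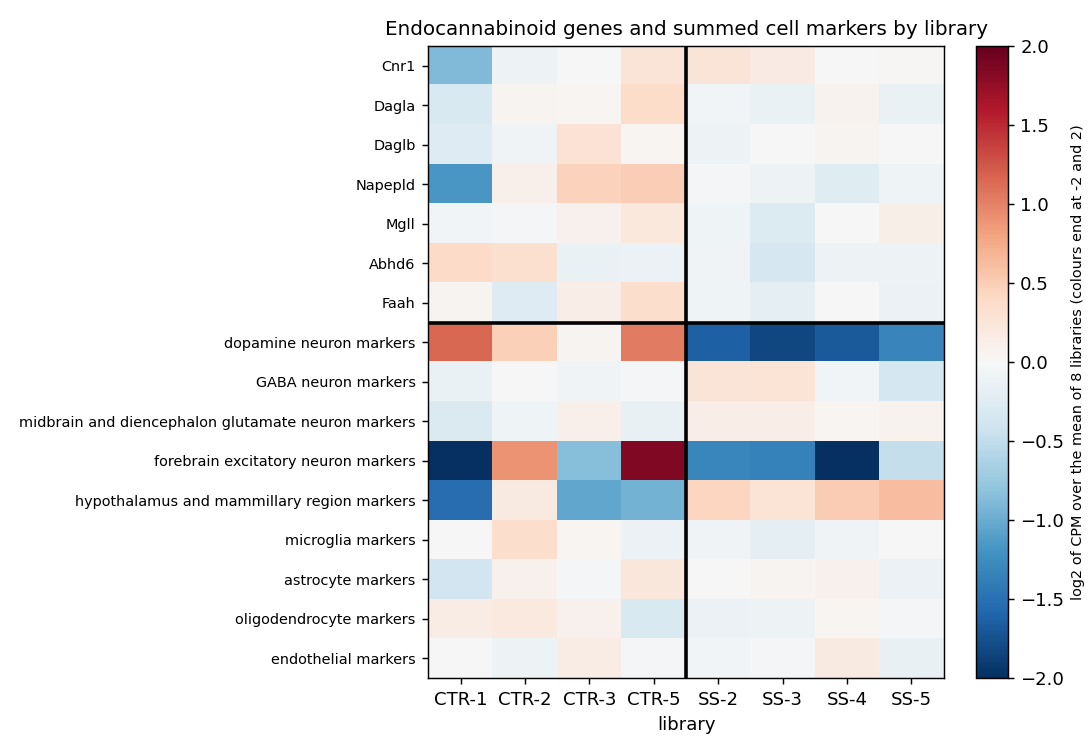
Log2 of each library's CPM over the mean of the 8 libraries (colour, ending at -2 and 2) for the 7 tested endocannabinoid genes and the summed markers of 9 cell or region lists. Dopamine neuron markers are low in the 4 SS libraries, and the low Cnr1 and Napepld of CTR-1 stand in the same column as its low forebrain markers.

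The remaining cell lists differed less. GABA neuron markers summed to 436 ± 19.4 CPM in CTR and 472 ± 92.7 in SS, and midbrain and diencephalon glutamate neuron markers to 394 ± 45.6 and 449 ± 13.8 (SD, n = 4 each). Their most abundant genes per kb were Slc32a1 and Slc17a6. Astrocyte markers, led by Slc1a2, summed to 2733 ± 460 CPM in CTR and 2762 ± 175 in SS. Oligodendrocyte markers summed to 28229 ± 4157 and 26436 ± 1263 CPM, and endothelial markers, led per kb by Cldn5, to 227 ± 16.9 and 224 ± 22.5 CPM. None of the genes in these 5 lists was called with edgeR.

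The genes most like Cnr1 over the 8 libraries, among 10205 genes with a mean of at least 10 CPM, were Bmpr1b, Dpysl3, Slc9a7, Senp5 and Amot. Their Pearson r of log2 CPM with Cnr1 ran from 0.984 to 0.990, as a description over libraries that share CTR-1 as the lowest point for each of them. Slc9a7, for instance, had 2.53 CPM in CTR-1 and 11.8 to 22.2 in the other 7. Without CTR-1 the same r ran from 0.878 to 0.954.

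The spread was wider in CTR than in SS. The coefficient of variation was 30.1% in CTR and 8.90% in SS for Cnr1, and 41.4% and 6.24% for Napepld. It was higher in CTR for 6 of the 7 tested genes, Mgll being the exception, and for 82.9% of all genes tested, so the endocannabinoid genes do not stand out in this. The fold changes without each library show the same unevenness, with CTR-1 and CTR-5 moving Cnr1, Dagla and Napepld the farthest.

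**Figure D5:**
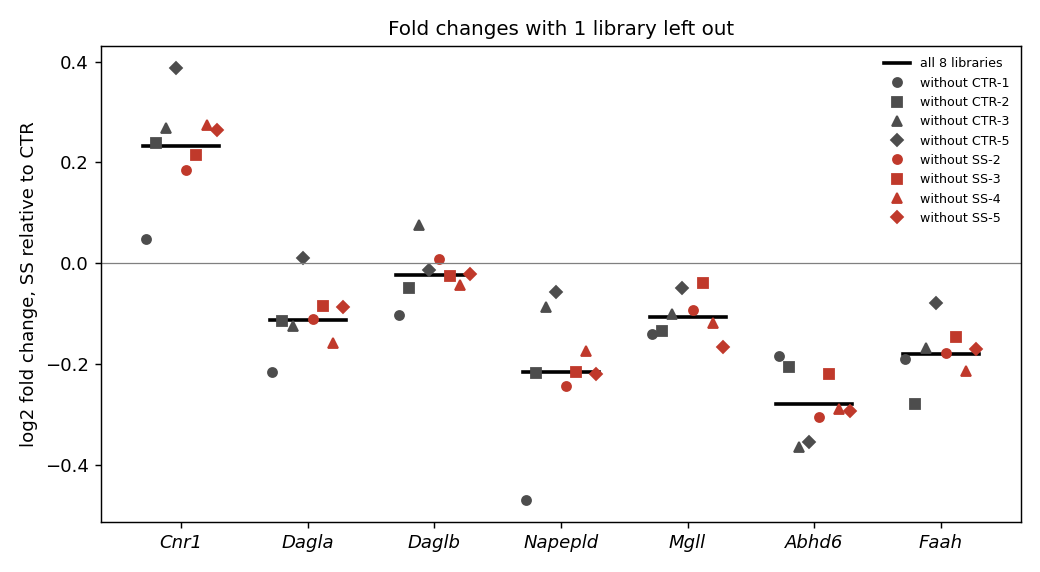
Log2 fold change, SS relative to CTR (vertical axis), of the 7 tested endocannabinoid genes with all 8 libraries (black lines) and with 1 library left out (symbols). Leaving out CTR-1 brings Cnr1 to 0.048 and Napepld to -0.47, and leaving out CTR-5 brings Dagla to 0.0095.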

How the data were processed

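RNA-seq counts of the VTA of 4 CTR and 4 SS mice, grouped by their labels, were analysed. After trimming (Cutadapt) and alignment to mm10 (STAR), the authors counted reads per Ensembl gene with htseq-count and deposited whole counts without normalization. Library totals set the counting error, and the limits given for counts of 0 cover that error only, while the intervals of fold changes include the spread between mice. In R 4.3.3, genes were filtered with filterByExpr of edgeR 4.0.16 (minimum count 10, minimum total count 15), normalized with TMM, and tested by quasi-likelihood (glmQLFit, glmQLFTest, default options), group being the only term, with Benjamini-Hochberg adjustment over the 16538 genes tested. The biological coefficient of variation was 0.384. The test was checked on simulated data with a smaller spread, equal in both groups. That check therefore does not give its power or error rate in these data. Exact two-sided permutation tests of log2 CPM (prior count 2) used 70 assignments and cannot give a p below 0.029. Exon lengths, overlaps and positions came from GENCODE M21 (GRCm38, the build of mm10), a different annotation release from the one the authors counted on. Lengths were missing for 83 of the tested genes. Genes named were the 8 members, of the other pathway genes those called, the 3 with the smallest p in each direction and the most abundant per kb of each role, the most abundant gene of each cell list, Th and Slc6a3, sex transcripts, and the 5 genes most correlated with Cnr1; a few of these are not reported. The members and lists were chosen with earlier results of these data known. DESeq2 1.42.0, limma 3.58.1 voom, other normalizations, filters and edgeR options, a replicate block and left-out libraries were alternatives.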

Additional observations from a re-analysis of the deposited data

Results flagged for a closer look

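In 8 of 100 groups of 4 values, 1 library lay far from the other 3, where independent normal values give about 1 in 20. The groups share genes and libraries, and some hold values at 0, so that rate is no measure of chance here. For the endocannabinoid genes this was the log2 ratio of Napepld over Faah in CTR-1, at -3.29 against -1.93 to -1.71 in the other CTR libraries. It was also Cnr2 in SS-2, at 0.0956 CPM (4 counts) against 0 in the other SS libraries. A 0 allows up to 0.113 CPM in SS-4 and 0.116 in SS-5 and so does not exclude that level there. In SS-3 a 0 allows up to 0.0622 CPM, which lies below the value of SS-2 (counting error only). The 4 counts of SS-2 have a counting error of their own, so SS-2 and SS-3 are not shown to differ. For the sex transcripts it was Xist in CTR-5 at 382 CPM, Xist in SS-5 at 252 CPM, and the summed Y-linked genes in SS-5 at 0 CPM against 154 to 170 in the other SS libraries. Among cell markers, SS-5 was high within SS for Th at 25.5 CPM (14.1 to 15.8 in the others) and for Pmch at 50.3 CPM (32.1 to 34.3 in the others), and CTR-5 had 0.204 CPM of S100a8 against 0. Causes were not tested.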

How the results depend on the processing

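No alternative called any of the 7 tested endocannabinoid genes or any of the other pathway genes, edgeR, DESeq2 and limma voom included. At an unadjusted p under 0.05 there was 1 such endocannabinoid gene without CTR-1 (Napepld), without CTR-2 (Faah) and without CTR-3 (Abhd6) and in the 6 libraries that share a number, without a block (Napepld), and 3 without CTR-1 and CTR-2 (Dagla, Faah and Napepld). Over all genes these fits had 1330 of 17101, 971 of 17101, 1181 of 17003, 869 of 17256 and 1177 of 18555 past it. Napepld, Mgll, Abhd6 and Faah were lower in SS under each of 21 alternatives. All of these refit the same libraries or parts of them, so a kept sign is not independent support. Abhd6 was at only -0.015 without CTR-1 and CTR-2. The sign turned for Cnr1 (-0.026 without CTR-1 and CTR-2), Dagla (0.032 without CTR-5 and SS-5, and -0.22 to 0.0095 with 1 library left out, the highest without CTR-5) and Daglb (-0.10 to 0.077 with 1 library left out, above 0 without CTR-3 and without SS-2). The cause was not tested. Over all genes the 14 calls became 81 with DESeq2, 22 without a filter, 22 with a mean count of at least 50, 27 with the bias-adjusted estimate, 9 without CTR-5 and SS-5, 7 at an adjusted p under 0.01, and 6 (without SS-4) to 19 (without CTR-2) with 1 library left out. With the replicate block over the 6 libraries that share a number, 9 genes were called, and 7 in the same libraries without the block. Same-numbered libraries had deviations correlated at -0.0093, -0.011 and 0.027, so the numbers gave no sign of pairs. CTR-5 and SS-5 do share transcripts that go against the male label, as given above. The fits of those libraries without the block, and without CTR-1 and CTR-5 (15 genes), were chosen after seeing the data. Depth limits Cnr2, which was tested only without a filter, and not called.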
